A study of Mus musculus with 65 samples.

Results

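TAL1 and CTCF occupancy were compared in one cell line, G1E-ER4+E2, through 20 of the 65 samples of the series. All 10 TAL1 lists assessed as Pass and 10 of the 14 CTCF lists assessed as Pass in this line were taken. Each list holds the peaks called in 1 ChIP-seq library, an assay in which an antibody pulls down the chromatin fragments bound by a protein and the fragments are sequenced. G1E-ER4 is a mouse erythroid line derived from embryonic stem cells. It lacks the transcription factor GATA1 and carries GATA1 fused to the ligand-binding domain of the estrogen receptor, so that it matures when estradiol is added. All 20 libraries came from cells grown with 15% FBS, kit ligand and erythropoietin and treated for 24 hours with β-estradiol to start maturation. The TAL1 antibody came from Santa Cruz and the CTCF antibody from Millipore. The average length of the sheared chromatin was 190 to 298 bp for TAL1 and 199 to 290 bp for CTCF. The study series gave 6 TAL1 and 8 CTCF lists, and libraries made earlier, the retrospective series, gave 4 and 2. Some retrospective TAL1 libraries were made with another fixative.

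TAL1 is a basic helix-loop-helix protein that binds DNA as a dimer with an E protein such as TCF3. In red cell precursors it sits in a complex with LMO2, LDB1 and often GATA1, which recognises the letters GATA. CTCF is a zinc finger protein that binds a long motif in most cell types, and with the cohesin ring it anchors chromatin loops and borders between domains. TAL1 is therefore known as a factor of tissue-specific enhancers and CTCF as a factor of insulators and loop anchors.

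The peaks of a factor that shared at least 1 bp were merged, and a merged interval was taken as a site where 5 or more of the 10 lists had called it. TAL1 lists held 2670 to 9763 peaks, with a median of 4205, and gave 11582 intervals, of which 4568 (39.4%) were sites. CTCF lists held 10655 to 17510 peaks, with a median of 13380, and gave 21047 intervals, of which 14122 (67.1%) were sites. The sites of both factors were of similar width, with a median of 1027 bp for TAL1 and 1004 bp for CTCF. All 10 lists called 1877 of the TAL1 intervals and 7086 of the CTCF intervals, while 2977 TAL1 and 2880 CTCF intervals were called in 1 list. The lists give no read totals, so depth is unknown, and differences in the number of peaks may follow depth as well as occupancy.

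One retrospective TAL1 list, library 436, is titled TAL1 while its antibody label names CTCF. Of its 4486 peaks, 79.3% overlapped intervals that 50% or more of the other TAL1 lists had called and 4.28% overlapped CTCF sites. A CTCF motif was found in 3.32% of its peaks, within the 2.995% to 3.57% of the TAL1 lists and far from the 47.9% to 50.5% of the CTCF lists. It was kept with TAL1, and none of the 13 comparisons between full TAL1 and CTCF lists changed its call without it.

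The strongest sites are given as examples of each factor. Sites were ranked by the median over the lists of the percentile of their −log10 p within each list, a scale on which the highest values sit near 310. Many of the strongest TAL1 sites share a value of 310 in their highest list or at the median. Their order and the size of these values are therefore not a fine measure of strength. The following sequences are from the GRCm38.p6 RefSeq genome and were chosen because they hold the factor's motif within the 10 strongest sites. Capitals mark the motif, and each sequence is written 5′ to 3′ on the strand that carries it. Of the 10 strongest TAL1 sites 6 held the GATA motif AGATAA in their middle 500 bp, and 3 of these held the composite CTGNNNNNNNNAGATAA, in which CTG, the last part of an E-box, lies 8 bases before the GATA motif; 5 of the 6 are shown. Of the 10 strongest CTCF sites 3 held CCANNAGNNGGC, the core of the CTCF motif, and 1 of those is not shown here. Only these exact letters were searched, so the other sites may hold weaker matches to the motif.
TAL1 site nearest to Atp2b4, chr1:133825743-133825819, plus strand: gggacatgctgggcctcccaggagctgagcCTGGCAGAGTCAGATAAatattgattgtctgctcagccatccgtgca
TAL1 site in Lrpprc, chr17:84776743-84776819, plus strand: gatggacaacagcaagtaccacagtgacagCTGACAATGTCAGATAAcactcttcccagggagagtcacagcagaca
TAL1 site in Tspan33, chr6:29701288-29701364, plus strand: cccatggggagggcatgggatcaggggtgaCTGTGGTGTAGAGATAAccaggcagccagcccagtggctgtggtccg
TAL1 site in Tmem131, chr1:36920163-36920228, minus strand: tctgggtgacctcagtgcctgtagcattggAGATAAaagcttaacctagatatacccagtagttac
TAL1 site at the start of Tmcc2, chr1:132367946-132368011, plus strand: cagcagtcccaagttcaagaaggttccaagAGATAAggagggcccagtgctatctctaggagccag
CTCF site in Sec22c, chr9:121697763-121697834, plus strand: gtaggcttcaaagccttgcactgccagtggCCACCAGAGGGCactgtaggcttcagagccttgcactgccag
CTCF site nearest to Hnrnpa3, chr2:75605855-75605926, plus strand: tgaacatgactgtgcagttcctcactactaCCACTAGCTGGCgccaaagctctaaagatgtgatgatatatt

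The strongest TAL1 site lay within Tmem131, in a first intron, at chr1:36919232-36921209. Its −log10 p was 264 in its lowest list, with a median of 310 and a highest value of 320. The second lay between genes at chr1:133824917-133826476, with the start of Atp2b4, a plasma membrane calcium pump gene, 24702 bp away as the nearest protein-coding start. The fourth lay within Gypc, which encodes the red cell membrane protein glycophorin C, in a first intron and 7105 bp from the start of Gypc. Its −log10 p was 187 in its lowest list and 310 in its highest. The site at Tspan33, a tetraspanin gene, also lay in a first intron, and its fold enrichment ran from 58.0 to 177 with a median of 85.6. In all, 6 of the 10 strongest TAL1 sites were intronic, 4 of them in a first intron, and 1 was at a promoter. Of all TAL1 sites 56.7% were intronic, 26.6% lay in a first intron and 13.2% at a promoter.

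The strongest CTCF site lay within Sec22c, a gene of vesicle transport, in a first intron at chr9:121697098-121698484. Its −log10 p was 115 in the lowest list, 212 at the median and 310 in the highest, and its fold enrichment 32.4 to 48.6. Next came a site in an intron of Snx29 at chr16:11422950-11424455 and sites in exons of Rdh13, a retinol dehydrogenase gene, and Nemp1, a nuclear envelope gene. Of the 10 strongest CTCF sites, 3 were intronic, 2 exonic, 4 intergenic and 1 at a promoter. Of all CTCF sites 43.7% were intronic, 5.43% exonic, 38.7% intergenic and 12.2% at a promoter. All 20 of the strongest sites were called in all 10 lists of their factor.

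The motifs separated the factors in every list. AGATAA, searched on both strands of the middle 500 bp, was found in 60.4% ± 1.19 (SD, n = 10) of TAL1 peaks and in 21.8% ± 0.494 (SD, n = 10) of CTCF peaks, against 30.2% of all 500-bp tiles of the genome and 14.6% of windows at protein-coding gene starts. The TAL1 lists ran from 58.8% to 62.3% and the CTCF lists from 21.04% to 22.5%, so the groups did not overlap. CCANNAGNNGGC was found in 49.5% ± 0.810 (SD, n = 10) of CTCF peaks and 3.26% ± 0.155 (SD, n = 10) of TAL1 peaks, against 2.59% of tiles and 3.72% of gene start windows. The TAL1 share of the CTCF motif was thus close to that of the genome, while the GATA share of CTCF peaks lay between those of tiles and of gene starts. These shares count exact letters only and miss weaker matches. The paper scanned whole peaks with the program FIMO and reported a CTCF motif in almost all called CTCF peaks. A CTCF peak without these letters is therefore not one without a motif. For both motifs the difference between the groups of lists gave an adjusted p of 7.8e-05 (two-sided permutation test with 100000 resamples, Benjamini-Hochberg over 13 measures). This is the smallest value these resamples gave, for differences that no other drawn grouping exceeded.

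The composite was the rarer and the more particular mark. It was found in 12.4% ± 1.29 (SD, n = 10) of TAL1 peaks, with a range over lists of 10.1% to 13.8%, in 0.486% ± 0.0305 (SD, n = 10) of CTCF peaks, with a range of 0.446% to 0.540%, and in 0.565% of tiles (adjusted p = 7.8e-05, permutation test). Every match of the composite is also a match of AGATAA. When the number of bases between CTG and AGATAA was varied from 0 to 20, 13.1% of TAL1 sites held the pair at 8 bases, 6.24% at 7 and 4.01% at 9. The median over the spacings other than 8 was 2.47%. In CTCF sites the pair was found in 0.347% to 0.630% of sites over all spacings, with 0.460% at 8. The nearest match to the midpoint lay a median of 43 bp away for AGATAA and 31 bp for the composite in TAL1 sites, and 19 bp for the CTCF motif in CTCF sites. More than 1 AGATAA was found in 19.4% of TAL1 sites, while more than 1 CTCF motif was found in 1.94% of CTCF sites.

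**Figure D1:**
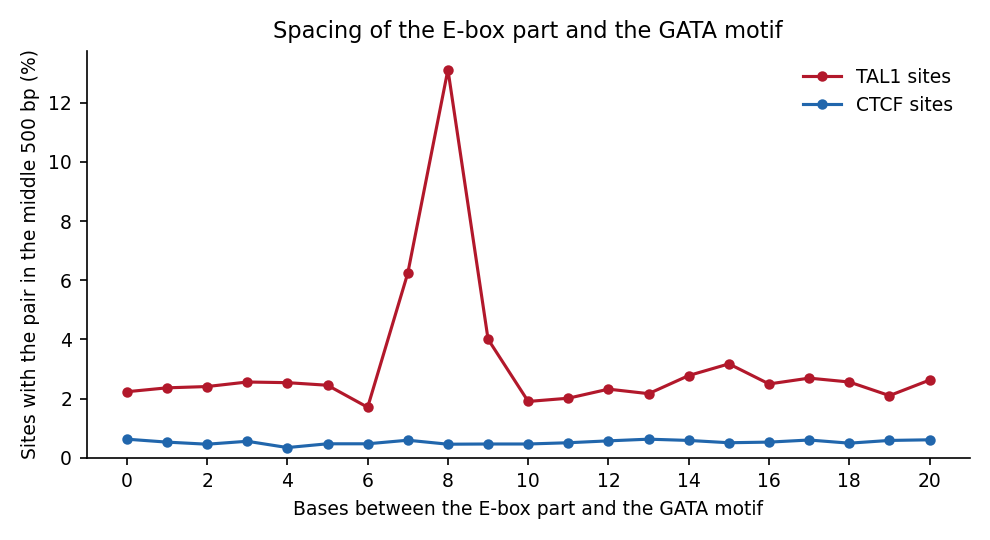
Percent of TAL1 sites (red) and CTCF sites (blue) that hold CTG and AGATAA on one strand within the middle 500 bp, by the number of bases between them. TAL1 sites peak at 13.1% for 8 bases, with 6.24% at 7, while CTCF sites stay between 0.347% and 0.630%.

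More recurrent TAL1 sites held the composite more often. It was found in 14.6% of TAL1 sites called in all 10 lists, in 11.2% of those called in exactly 5 and in 6.99% of intervals called in 1 list. The CTCF motif was found in 49.8% of CTCF sites called in all 10 lists, 47.4% of those in exactly 5 and 44.9% of intervals in 1 list. These shares are descriptions, and the part of peak strength in them was not tested.

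TAL1 peaks lay nearer to transcript starts than CTCF peaks. The median distance from a peak's midpoint to the nearest start was 7.16 kb ± 0.300 (SD, n = 10) for TAL1, from 6.69 to 7.68 kb, and 8.82 kb ± 0.180 (SD, n = 10) for CTCF, from 8.53 to 9.16 kb. The groups did not overlap, and the difference of -1.67 kb had an adjusted p of 7.8e-05 (permutation test). Among the 2000 strongest peaks of each list it shrank to -0.448 kb, with 6.68 kb for TAL1 and 7.13 kb for CTCF (adjusted p = 0.00189, permutation test). These 2000 are a larger part of a TAL1 list, of 2670 to 9763 peaks, than of a CTCF list, of 10655 to 17510 peaks. Measured to the starts of protein-coding genes only, the difference grew to -3.43 kb, with 12.2 kb for TAL1 and 15.6 kb for CTCF.

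The excess of TAL1 lay beside starts and not on them. Within 500 bp of a start lay 7.401% ± 0.715 (SD, n = 10) of TAL1 peaks and 8.54% ± 0.521 (SD, n = 10) of CTCF peaks. Between 500 bp and 1 kb lay 5.77% ± 0.205 of TAL1 and 3.87% ± 0.0951 of CTCF peaks, and from 1 to 10 kb 46.3% ± 0.218 and 41.0% ± 0.274 (SD, n = 10 in each group). From 10 to 100 kb the order was the opposite, with 39.6% ± 0.878 of TAL1 and 45.2% ± 0.426 of CTCF peaks. Of the peaks 1 to 10 kb from a start, 56.7% ± 0.886 (SD, n = 10) of TAL1 peaks lay downstream of it, on the side of the gene, and 49.5% ± 0.285 (SD, n = 10) of CTCF peaks did. The TAL1 lists ran from 54.9% to 57.6% and the CTCF lists from 49.2% to 50.1%. Of these shares by distance and side only that within 500 bp was tested, as given below.

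**Figure D2:**
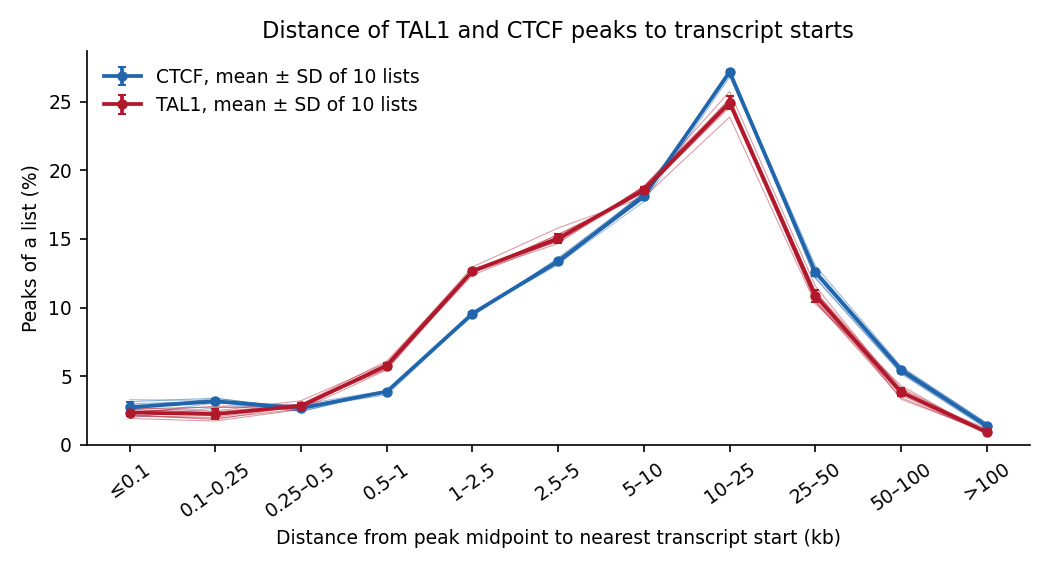
Percent of the peaks of a list by distance from the midpoint to the nearest transcript start in kb, with 1 thin line for each of 10 TAL1 (red) and 10 CTCF (blue) lists and points and bars for the mean and SD. TAL1 exceeds CTCF from 0.5 to 10 kb, with 12.7% against 9.55% at 1 to 2.5 kb, and CTCF exceeds TAL1 from 10 to 100 kb, with 27.2% against 24.9% at 10 to 25 kb.

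The share of peaks at promoters, within 1000 bp of a start, therefore depended on the width of the window. It was 13.2% ± 0.847 (SD, n = 10) for TAL1 and 12.4% ± 0.481 (SD, n = 10) for CTCF (adjusted p = 0.0260, permutation test), and the ranges of 11.7% to 14.3% and 11.5% to 13.1% overlapped. With a window of 2500 bp the TAL1 share was higher by 3.86 percentage points. With 500 bp the direction turned, with 7.401% of TAL1 and 8.54% of CTCF peaks (adjusted p = 0.000997, permutation test). It also turned among the 2000 strongest peaks of each list, with 13.6% of TAL1 and 16.8% of CTCF peaks (adjusted p = 0.000260, permutation test). Peaks over 100 kb from any start were few, 0.920% ± 0.109 (SD, n = 10) for TAL1 and 1.37% ± 0.137 (SD, n = 10) for CTCF (adjusted p = 0.000118, permutation test), against 10.4% of genome bases. Among the 2000 strongest peaks this order turned as well, with 0.80% for TAL1 and 0.50% for CTCF (adjusted p = 0.000231, permutation test).

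Introns held a larger share of TAL1 than of CTCF peaks, and this excess lay in first introns. Introns held 56.6% ± 1.45 (SD, n = 10) of TAL1 peaks, from 53.4% to 58.5%, and 43.4% ± 0.605 (SD, n = 10) of CTCF peaks, from 42.2% to 44.3%, against 40.3% of genome bases. First introns held 26.8% ± 0.758 (SD, n = 10) of TAL1 peaks, from 25.2% to 27.9%, and 11.6% ± 0.325 (SD, n = 10) of CTCF peaks, from 11.1% to 12.1%, against 13.3% of genome bases. Of all intronic peaks, 47.5% ± 0.405 (SD, n = 10) of those of TAL1 and 26.7% ± 0.452 (SD, n = 10) of those of CTCF were in a first intron. The intron difference of 13.2 and the first intron difference of 15.3 percentage points both had an adjusted p of 7.8e-05 (permutation test), and neither pair of groups overlapped. Since the first intron difference was the larger, the other introns together held on average a smaller share of TAL1 than of CTCF peaks. Within the study series alone the differences were 13.5 and 15.5 percentage points. Within the retrospective series they were 12.3 and 14.7, where 4 lists against 2 cannot give an exact permutation p below 0.133.

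CTCF peaks were more often in exons and between genes. Exons outside promoters held 5.58% ± 0.227 (SD, n = 10) of CTCF and 4.31% ± 0.205 (SD, n = 10) of TAL1 peaks, against 2.91% of genome bases. Intergenic sequence held 38.6% ± 0.296 (SD, n = 10) of CTCF and 26.0% ± 0.984 (SD, n = 10) of TAL1 peaks, against 52.5% of genome bases. Both differences had an adjusted p of 7.8e-05 (permutation test) and groups that did not overlap. Among the 2000 strongest peaks the exon shares stood further apart, at 7.03% for CTCF and 4.48% for TAL1.

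**Figure D3:**
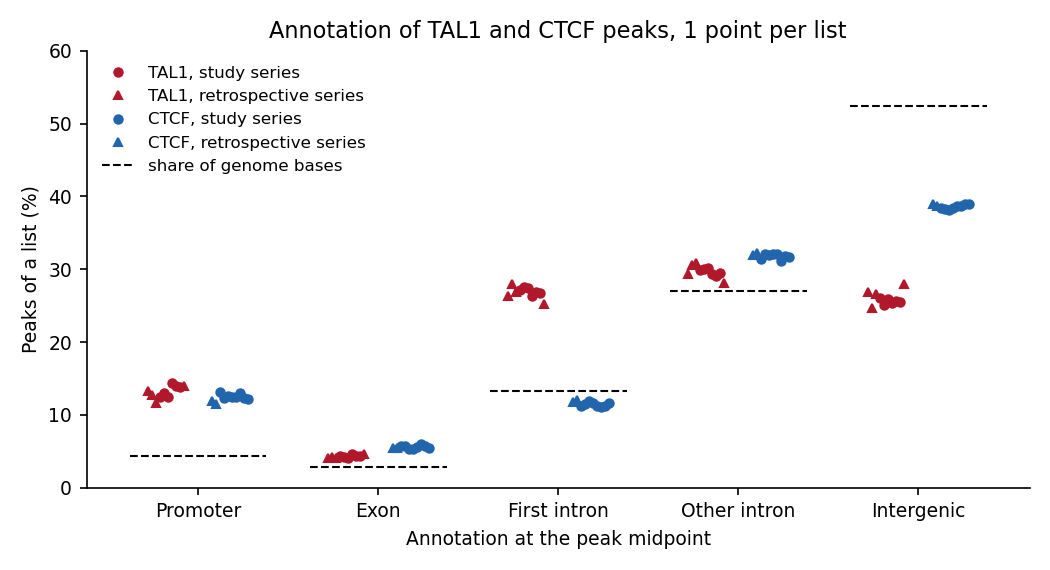
Percent of the peaks of a list in each class of annotation at the peak's midpoint, with 1 point for each list of the study (circles) and retrospective (triangles) series, TAL1 in red and CTCF in blue. Dashed lines give the share of genome bases. First introns hold 25.2% to 27.9% of the peaks of TAL1 lists and 11.1% to 12.1% of those of CTCF lists, around a genome share of 13.3%.

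Few peaks of either factor were mostly repeats. Repeat masking covers 36.4% of genome bases, and the share of genome windows that are 50% or more masked was not computed. A peak was counted as mostly repeats if masking covered 50% or more of its length. Such peaks made up 4.42% ± 0.514 (SD, n = 10) of TAL1 lists, from 3.79% to 5.45%, and 7.16% ± 1.19 (SD, n = 10) of CTCF lists, from 5.76% to 8.89% (adjusted p = 7.8e-05, permutation test). Over the middle 500 bp of each peak, a setting added after seeing the data, the shares were 4.73% and 7.81%. The gap narrowed to 2.53% against 3.37% among the 2000 strongest peaks (adjusted p = 0.0404, permutation test). At a threshold of 80% masked bases the direction turned, with 0.987% of TAL1 and 0.586% of CTCF peaks (adjusted p = 0.000402, permutation test). With all 14 Pass CTCF lists the CTCF mean rose to 8.80%, since 2 of the added lists had 17.2% and 18.9%. The paper also describes a CTCF pilot with fewer cells in this line, and these lists with high shares may come from it. They are therefore not to be read as plain replicates of the others. The part of cell number in their repeat shares was not tested. Intervals called in 1 list were mostly repeats more often, 9.10% for TAL1 and 18.4% for CTCF, than sites called in all 10 lists, 2.40% and 4.60%.

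Among the 10 CTCF lists compared, the repeat share was higher where the chromatin was shorter. The 4 other Pass CTCF lists were left out of this relation. Among these, the shares of 18.9% at 302 bp and 17.2% at 248 bp lay far above the 5.76% to 8.89% of the 10 lists. The other shares, 6.77% at 248 bp and 8.78% at 220 bp, lay within that range. The lists with the high shares may be those of the pilot with fewer cells, and cell number was not tested. Over the 10 CTCF lists Pearson's r between the repeat share and the chromatin length was -0.737 (permutation p = 0.00312, adjusted p = 0.0187 over 6 relations) and Spearman's rho was -0.830 (permutation p = 0.00434, adjusted p = 0.0260). Without the 2 lists at 272 and 290 bp r was -0.641 (exact permutation p = 0.0445, adjusted p = 0.267). Within the 8 lists of the study series r was -0.854 (exact permutation p = 0.00828), while the retrospective series has too few lists. Over the middle 500 bp r was -0.646 (permutation p = 0.0361, adjusted p = 0.216). The median peak width of CTCF lists ran from 524 bp, in the list of 199 bp chromatin with 8.89% of peaks mostly repeats, to 954 bp, and the part of width was not tested beyond this. In TAL1 lists r was 0.133 (permutation p = 0.689), and for promoter and intron shares no relation with length passed the threshold in either factor (adjusted p of 0.513 for each). Spearman's rho of these 5 relations ran from -0.297 to 0.515, with adjusted permutation p of 0.400 to 0.629.

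Base composition did not separate the factors in the full lists. The GC content of the middle 500 bp averaged 47.8% ± 0.725 (SD, n = 10) for TAL1 and 47.6% ± 0.388 (SD, n = 10) for CTCF, against 41.7% of genome bases (adjusted p = 0.570, permutation test). The ranges of 46.9% to 48.8% and 47.1% to 48.4% overlapped. Among the 2000 strongest peaks of each list GC was higher for CTCF, 49.99% against 48.6% (adjusted p = 0.000307, permutation test).

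The 2000 strongest peaks of TAL1 lists lay closer together than those of CTCF lists, though they are a larger part of a TAL1 list. Of the 2000 strongest peaks of a list, 19.8% ± 0.837 (SD, n = 10) of those of TAL1, from 18.4% to 21.5%, had another within 10 kb, and 11.5% ± 1.28 (SD, n = 10) of those of CTCF, from 10.2% to 14%. The groups did not overlap (adjusted p = 7.8e-05, permutation test). Within the retrospective series the difference was 5.95 percentage points, with CTCF at 13.7%, and within the study series 8.87. At 5 kb the shares were 10.97% and 6.84%.

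Among all sites, which are more numerous for CTCF, the order differed. Adjacent TAL1 sites lay a median of 81.2 kb apart, with 16.9% of the gaps within 10 kb and 13.7% over 1 Mb. Adjacent CTCF sites lay a median of 49.4 kb apart, with 17.4% within 10 kb and 3.59% over 1 Mb. For the 4568 strongest CTCF sites, as many as there are TAL1 sites, the median was 115 kb, with 10.0% within 10 kb and 12.47% over 1 Mb. At equal number, TAL1 sites thus had both more short gaps and a slightly larger share of gaps over 1 Mb. These site-level shares are descriptions with no test.

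**Figure D4:**
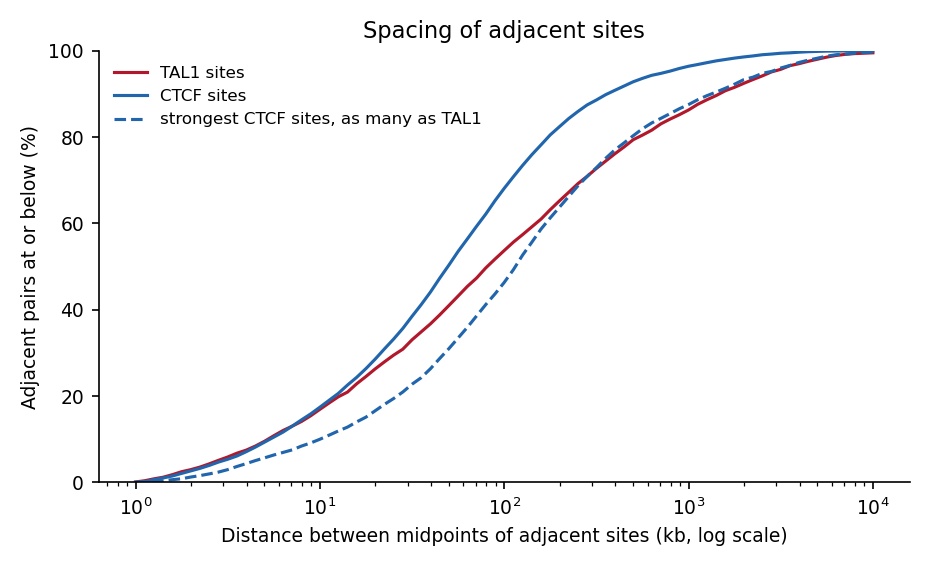
Cumulative percent of adjacent site pairs by the distance between their midpoints in kb on a log scale, for 4568 TAL1 sites (red), 14122 CTCF sites (solid blue) and the 4568 strongest CTCF sites (dashed blue). At 10 kb the curves stand at 16.9%, 17.4% and 10.0%, and at 100 kb at 53.7%, 68.1% and 46.3%.

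Sites whose midpoints lay within about 12 kb of the next were joined into clusters. TAL1 sites formed 687 clusters of 2 or more sites, which held 34.7% of sites, and 15 clusters of 5 or more. The 4568 strongest CTCF sites formed 460 clusters of 2 or more, which held 21.8% of sites, and none of 5 or more. All 14122 CTCF sites formed 2186 clusters of 2 or more, which held 36.0% of sites, and 35 of 5 or more.

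A cluster of 5 sites at chr11:32245221-32269798, 4 of them in introns of Nprl3, covers the region known for the distal enhancers of the alpha-globin genes. All 5 of its sites held AGATAA, 1 held the composite, and 4 were called in all 10 lists. A cluster of 5 sites at chr12:105025095-105040212 lay at Glrx5, a gene of iron-sulfur cluster assembly that heme synthesis needs. Another 5 sites lay at chr17:47568100-47598912 in Ccnd3, the cyclin D3 gene, 5 at chr15:78304763-78330550 at the cytokine receptor genes Csf2rb and Csf2rb2, and 5 at chr16:34031109-34057386 in introns of Kalrn. Of the other clusters of 5 sites, those at Ap5s1, Nt5c3, Dapp1 and Gse1 were among the 10 named, ties being ordered by the strength of their sites. The cluster with the most sites, 6, lay near Eapp at chr12:54708643-54740305, and none of its sites was called in all 10 lists.

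The largest CTCF cluster, of 8 sites, lay at Ptma, the prothymosin alpha gene, at chr1:86499506-86539127, with 7 sites between genes and 3 holding the CTCF motif. Clusters of 7 lay at Trpv4 and Fam222a (chr5:114608170-114640090) and at Tmem44 (chr16:30503725-30551124), with the motif in 5 sites of each. The clusters of 6 among the 10 named lay at Nmur1, at Fosb and Rtn2, at Rpl14, at Cox19 and Cyp2w1, at Myl2 and Ccdc63, at Smug1 and Cbx5, and at Clip2. No composite match was found in any of the 10 largest CTCF clusters. Only 0.460% of all CTCF sites held one, so its absence is not particular to these clusters.

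The orientation of CTCF motifs on neighbouring sites differed with the distance between them. Of adjacent pairs whose matches each lay on 1 strand, 3314 in all, 26.1% pointed toward each other, 25.5% away from each other and 48.4% the same way. Within 10 kb 17.3% of 595 pairs pointed toward each other and 31.9% away. Over 100 kb 34.4% of 1054 pairs pointed toward each other and 19.5% away. Motifs that point toward each other are the known arrangement of loop anchors. Pairs share sites, and these shares were not tested.

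Most sites of each factor shared no base with a site of the other. The share that random placement would give was not computed, so the counts show neither avoidance nor preference between the factors. Of the 4568 TAL1 sites 233 (5.10%) shared at least 1 bp with a CTCF site, and of the 14122 CTCF sites 236 (1.67%) shared 1 bp with a TAL1 site. Of the TAL1 sites so shared 19.7% lay at promoters, against 12.9% of the others, 15.0% in first introns, against 27.2%, and 12.9% held the CTCF motif, against 2.70%. AGATAA was found in 55.8% of the shared and 61.8% of the other TAL1 sites. The shared site that ranked highest among TAL1 sites lay 95 bp from the start of Tmcc2, at chr1:132367331-132368612, and is the one whose AGATAA is printed above. TAL1 sites lay a median of 20.9 kb from the nearest CTCF site, and 31.5% lay within 10 kb of one.

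CTCF sites cut the genome into 14102 intervals between neighbours, of which 2818 (19.98%) held a TAL1 site. Those with TAL1 were longer, with a median of 90.5 kb against 40.9 kb, and 74 held 5 or more TAL1 sites, with 14 at the most. A longer interval is more likely to hold a site of any kind, so the difference in length says nothing particular to TAL1. For 3577 of the TAL1 sites no CTCF site lay between the midpoint and the nearest protein-coding start, and for 991 (21.7%) at least 1 did. The share expected from these distances and the spacing of CTCF sites was not computed.

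Both factors were densest on chromosome 11, with 3.27 TAL1 and 9.86 CTCF sites per Mb. Chromosome X was the sparsest of those with sites, at 0.304 and 0.959 per Mb, and no site of either factor was placed on chromosome Y.

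The 4568 TAL1 sites had 3032 protein-coding genes as their nearest, and the 14122 CTCF sites 8746. Both lists held 1958 genes, 64.6% of the TAL1 and 22.4% of the CTCF genes. Klf13, a Krüppel-like transcription factor gene, was nearest to the most TAL1 sites, 11, and to no CTCF site. The TAL1 lists had 4 to 16 peaks nearest to it, with a median of 10. Gse1 was nearest to 10 TAL1 sites and to 7 CTCF sites. Its TAL1 sites all lay in a first intron of some transcript, not necessarily one of Gse1. Pik3r1, which encodes the regulatory subunit of phosphoinositide 3-kinase, had 10 TAL1 and 2 CTCF sites.

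Sgms1, a sphingomyelin synthase gene, had 9 TAL1 sites and 1 CTCF site. Ccnd3 had 8 and 2, Nck2, an adaptor gene of receptor signalling, 8 and 0, and Rere, a transcriptional corepressor gene, 8 and 3. Nt5c2, a nucleotidase gene, had 7 TAL1 and 3 CTCF sites, Phlda1 7 and 1, and Pitpnm2 7 and 1. The 7 TAL1 sites of Phlda1, a gene of 2.36 kb, all lay between genes.

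The genes nearest to the most CTCF sites included several long ones. Nav2, a gene of 701 kb of neuronal growth, had 14 CTCF sites, all in introns and 8 of them in all 10 lists, and 6 TAL1 sites. Pde4d, a phosphodiesterase gene of 1504 kb, had 11 and 2. Dad1, a gene of 18.6 kb beside the T cell receptor alpha locus, had 10 and 0, and Sept9, a septin gene, 10 and 0. Fam92b had 9 CTCF and 2 TAL1 sites, Thsd4 9 and 4, Hs6st1 8 and 2, Itpr2, an inositol trisphosphate receptor gene, 8 and 1, and Lmx1b and Lonrf2 8 and 0 each.

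Lists of genes were then counted by whether a site lay in the gene or within 10 kb of it. Of all 21911 protein-coding genes 16.1% had a TAL1 site and 43.2% a CTCF site, and the shares below are to be read against these. Long genes hold more sites of any factor, which the counts do not adjust for, and genes of a cluster can share a site. Of 6 erythroid marker genes 5 had a TAL1 site and 3 a CTCF site.

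Of 20 genes of the TAL1 complex and of erythroid transcription factors, 18 (90.0%) had a TAL1 site and 16 (80%) a CTCF site. The share in single TAL1 lists was 83.0% ± 7.53 (SD, n = 10), from 75% to 95.0%. Zfpm1, which encodes the GATA1 partner FOG1, had 9 TAL1 and 2 CTCF sites, and Cbfa2t3, a corepressor of the TAL1 complex, 6 and 2. Runx1, a factor of blood stem cells and megakaryocytes, had 4 and 3, and the repressor gene Gfi1b 3 and 3. Foxo3 had 3 TAL1 sites and no CTCF site, and Sox6 2 of each. Myb, a gene of progenitors, and Zbtb7a had no TAL1 site.

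Of 20 red cell membrane genes 19 (95.0%) had a TAL1 site and 12 (60%) a CTCF site, and all 10 TAL1 lists had a peak at 90.0% to 95.0% of them. Add2, beta-adducin, had 5 TAL1 and 2 CTCF sites, Epb41, protein 4.1, 4 and 3, and Sptb, beta-spectrin, 4 and 2. Gypc had 4 TAL1 sites, Add1 3 and the anion exchanger gene Slc4a1 3, and none of these had a CTCF site. The water channel gene Aqp1 had neither.

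Of 18 globin and heme synthesis genes 14 (77.8%) had a TAL1 and 11 (61.1%) a CTCF site. Alas2, the erythroid enzyme of the first step of heme synthesis, had 2 TAL1 sites and no CTCF site. Fech, which inserts iron into heme, had 2 and 1, Abcb10, a mitochondrial transporter gene, 3 and 2, Slc25a38 2 and 1, and Uros 2 and 1. The beta-globin gene Hbb-bt had 2 TAL1 sites, called near it in 8 of 10 lists, and 1 CTCF site. The alpha-globin genes Hba-a1 and Hba-a2 had no TAL1 site within 10 kb.

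Of 11 genes of iron uptake and storage 8 (72.7%) had a TAL1 site and 8 a CTCF site. The transferrin receptor gene Tfrc had 2 TAL1 sites and 1 CTCF site, and Ncoa4, the receptor for the breakdown of ferritin, 2 and 0. Of 13 genes of erythropoietin and kit signalling 8 (61.5%) had a TAL1 site and 10 (76.9%) a CTCF site. Bcl2l1, the survival gene of maturing red cells, had 5 and 1. Kit had 2 TAL1 sites, called near it in 6 of 10 lists.

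Of 12 megakaryocyte and platelet genes 8 (66.7%) had a TAL1 site and 4 (33.3%) a CTCF site. Itgb3 had 4 TAL1 sites and 1 CTCF site, Itga2b 2 and 0, and Tubb1 2 and 1. TAL1 lists had a peak at 41.7% to 75% of these genes and CTCF lists at 16.7% to 58.3%, so the lists of the factors overlapped here. They also overlapped for the erythroid transcription factor, globin and heme, iron, and signalling genes. For red cell membrane genes they did not, with TAL1 lists at 90.0% to 95.0% and CTCF lists at 45% to 70%.

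Genes of other lineages carried TAL1 sites at shares from 0 to 21.4%, around the 16.1% of all genes. Of 13 granulocyte and monocyte genes 2 (15.4%) had a TAL1 site, Spi1 and Cebpe, and 6 (46.2%) a CTCF site. Of 14 lymphocyte genes 3 (21.4%) had a TAL1 site, Rag1, Rag2 and Cd79a, and 8 (57.1%) a CTCF site. Of 12 hepatocyte genes none had a TAL1 site or a peak in any TAL1 list, and 5 (41.7%) had a CTCF site. The CTCF shares of these 3 lists stood near or above the 43.2% of all genes.

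Gene families with many copies and the partners of CTCF were counted in the same way. Of 39 Hox genes none had a TAL1 site and 21 (53.8%) a CTCF site, with Hoxc5 at 3 sites. Of 56 clustered protocadherin genes none had a TAL1 site and 18 (32.1%) a CTCF site, and these genes overlap each other and share sites. Of 79 ribosomal protein genes 13 (16.5%) had a TAL1 site and 53 (67.1%) a CTCF site, with Rpl3 at 4. Of 67 histone genes 10 (14.9%) and 30 (44.8%) did. By sites, the TAL1 shares of ribosomal protein and histone genes and the CTCF share of histone genes thus lay close to those of all genes. Single TAL1 lists varied widely, from 10.1% to 36.7% for ribosomal protein genes and from 10.4% to 47.8% for histone genes. For all genes they ran from 10.6% to 27.0%. Of 1092 olfactory receptor genes 9 (0.824%) had a TAL1 and 43 (3.94%) a CTCF site. Of 16 genes of cohesin and its partners 2 had a TAL1 site, Stag1 and Smc3, and 9 (56.2%) a CTCF site, Ctcf itself among them. Single TAL1 lists had a peak at 6.25% to 62.5% of these genes.

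**Figure D5:**
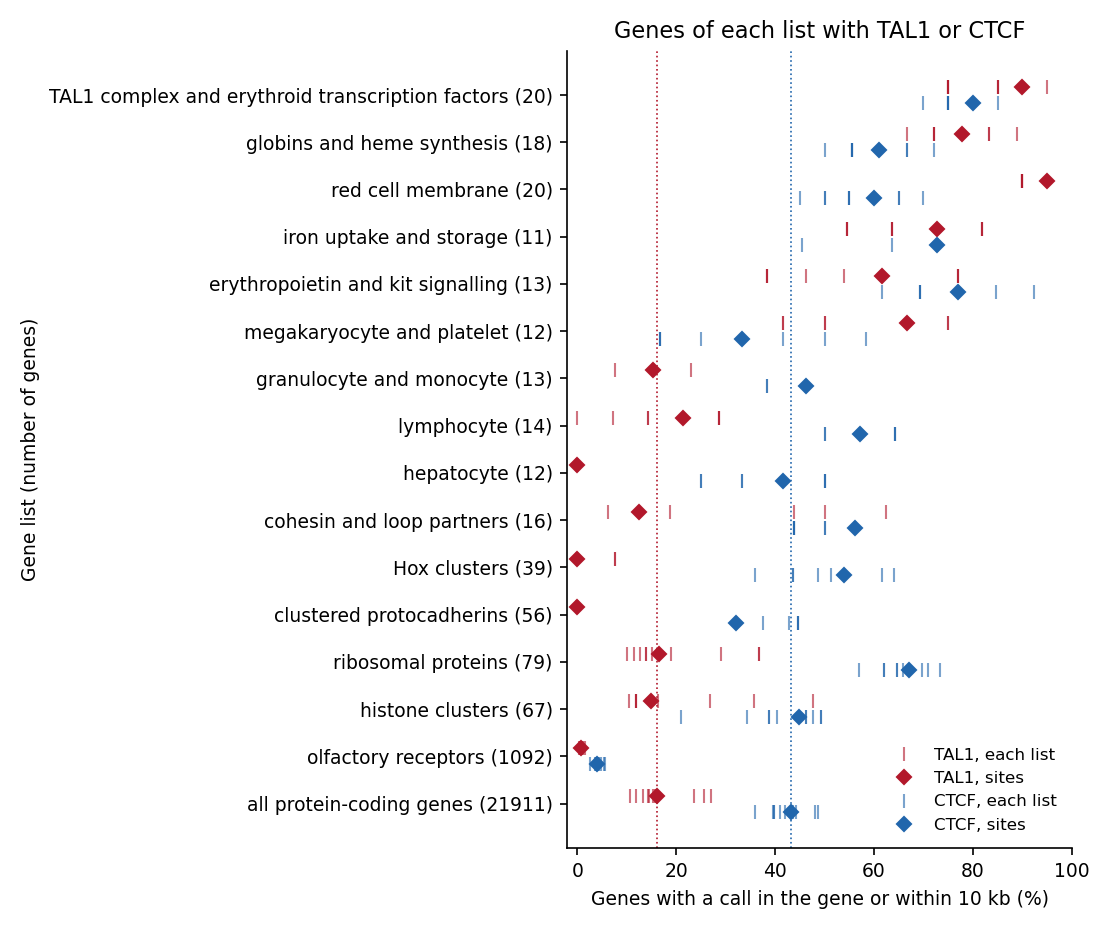
Percent of the genes of each list (number of genes in brackets) with a call in the gene or within 10 kb, for TAL1 (red) and CTCF (blue), with diamonds for sites, ticks for each of the 10 lists of a factor and dotted lines for the 16.1% and 43.2% of all protein-coding genes. The 6 erythroid and megakaryocyte lists at the top have TAL1 sites at 61.5% to 95.0% of their genes, and hepatocyte genes at 0.

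With the 4568 strongest CTCF sites in place of all, which can only lower the CTCF shares, 19.8% of all genes had a CTCF site. So did 45% of the erythroid transcription factor genes, 25% of the red cell membrane genes, 27.8% of the globin and heme synthesis genes, 8.33% of the megakaryocyte genes, 36.7% of the ribosomal protein genes and 32.1% of the clustered protocadherin genes. For lymphocyte genes the share was 14.3% and for histone genes 5.97%, both under the TAL1 shares.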

How the data were processed

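Reads were aligned by the authors to the mouse build mm10 (GRCm38) using Bowtie. Peaks were called by the authors for each library alone with MACS, mostly against a composite input of the line. Bowtie 1.0.0 and bcl2fastq 1.8.4 stand in the submitters' processing notes, while the study's methods give an older Bowtie. Each deposited list gives, for every peak, the fold enrichment over background as a ratio and the −log10 of its p-value, which the authors' lists hold down to 5. The p cutoff is not given in the sources used here. The deposited FDR column was not used. No columns were left unmatched. Values were not rescaled and served to rank peaks within a list.

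Positions, starts, exons and introns were taken from the GENCODE vM21 basic annotation and the GRCm38.p6 sequence with Python 3.11.15, pandas 2.3.3, numpy 2.4.6 and SciPy 1.17.1. A peak's class was set at its midpoint, in the order promoter (1000 bp), exon, intron, intergenic. A first intron was that of any transcript of any gene, so it need not belong to the gene named with a site. Each of 13 measures was computed per list and compared between 10 TAL1 and 10 CTCF lists by a two-sided permutation test with 100000 resamples (exact where a group was smaller), with Benjamini-Hochberg adjustment. Lists are the replicates, while sites are not. The labels do not say that libraries came from separate cultures, so p-values measure the spread between libraries. The scripts were tested on simulated data.

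Named were the 10 strongest sites, the 10 genes nearest to the most sites and the 10 largest clusters of each factor, and up to 6 genes of each of 15 gene lists in order of their sites. Genes of a list without a TAL1 site were named outside this rule, after their values were seen. Of the listed genes 1, Ahsp, was not matched and was not analysed here. The members and lists were chosen with earlier results of these data known. Alternatives were fewer or more lists, the strongest peaks, other windows, thresholds and annotations, each series alone, and leaving out each list. The result of 1 marker set is not reported here.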

Additional observations from a re-analysis of the deposited data

Results flagged for a closer look

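In the 10 TAL1 lists, library 436, whose antibody label names CTCF, stood apart in the share of peaks over 100 kb from any transcript start. The value was 1.16%, and the nearest other TAL1 list had 0.971%, a gap of 0.482 of the whole range. Of 26 groups of 10 lists checked in this way this was the 1 that stood out, and chance gives about 1 in 20. Without this list the TAL1 mean was 0.894% against 1.37% for CTCF. The cause was not tested.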

How the results depend on the processing

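Values are TAL1 minus CTCF, in percentage points unless a unit is given. Among the 2000 strongest peaks of each list the direction turned for promoters (-3.24), peaks over 100 kb from a start (0.300) and GC (-1.36). It also turned for promoters of 500 bp (-1.14) and for repeats at 80% masked bases (0.401). With as many of the strongest CTCF sites as TAL1 sites, the site-level difference turned for promoters (-1.95), far sites (0.285), repeats (0.263), GC (-1.51) and neighbours (11.3). Within the retrospective series no exact permutation p can pass 0.05. There the differences were 1.17 for promoters, -1.83 kb for the median distance, -0.534 for far peaks, -1.17 for exons, 12.3 for introns, 14.7 for first introns, -12.3 for intergenic peaks, -2.13 for repeats, 5.95 for neighbours, -44.8 for the CTCF motif, 38.7 for AGATAA and 11.996 for the composite, all in the main direction.

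Leaving out each list in turn gave 0.629 to 0.926 for promoters, and the call was lost without TAL1 library 702 (0.629), 703 (0.669) or 707 (0.674) or CTCF library 369 (0.662). No other call changed, with ranges of 12.95 to 13.5 for introns and -1.72 to -1.61 kb for the median distance. TAL1 sites numbered 3963 to 4530 and CTCF sites 13227 to 13919 with 1 list left out. Requiring at least 8 lists left 3010 TAL1 sites, and all 10 lists 1877 TAL1 and 7086 CTCF sites. Without the 2 farthest lengths r of TAL1 lists with length turned for introns (-0.00723) and repeats (-0.479), and that of the CTCF repeat share lost its adjusted call (-0.641), as it did over the middle 500 bp (-0.646).

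No paired analysis was possible because the labels give libraries no shared replicate number. Depth is unknown here, so differences in peak number cannot be told apart from depth.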
